A study of Equus caballus with 4 samples.

Results

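The genes that sense double-stranded RNA and the oligoadenylate synthetase (OAS) genes were described in equine satellite cells treated with gamma-oryzanol (GO), a mixture of plant sterol esters of ferulic acid from rice bran. Of the 9 genes on the list, IFIH1, DDX58, OAS1, OAS2, OAS3, OASL and EIF2AK2 were found by gene symbol on 20 of the 43603 probes of the horse array, which carries 14593 named genes. DHX58 and ADAR had no probe under their symbol. For DHX58 and ADAR 5 probes each, and for OAS3 1 further probe, were named in the files only by a transcript and its description. These 11 probes are given beside the 20 and are not counted with them. The genes were chosen by name after log2 ratios of these same arrays had been seen, so the values below that chose them, the signals and ratios of GO over control, are given as a description. Counts of called probes among them come from the fit over all probes and are no independent evidence for these genes.

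Satellite cells, the stem cells of skeletal muscle, came from the semitendinosus muscle of young colts and were cultured to day 3 of differentiation. Cells were incubated for the last 24 h with 125 nM GO in DMSO (0.04 μl/ml), and control cells received the same amount of DMSO without GO. Each of 4 arrays held RNA of GO-treated cells labelled with Cy5 and RNA of control cells labelled with Cy3. The labels call the 4 arrays biological replicates, but the methods describe the choice of 1 cell line for the work, so the spread between arrays may be that between cultures and not between horses. No array had the dyes the other way round, so an effect of the dye and an effect of GO cannot be told apart. In a bulk culture, fewer cells of a type and less RNA per cell cannot be told apart either.

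Cells recognise double-stranded RNA, a common by-product of viral replication, with several kinds of protein. MDA5 (encoded by IFIH1) and RIG-I (DDX58) are helicases of the cytoplasm that bind such RNA and signal through the adaptor MAVS to switch on interferon genes, and LGP2 (DHX58) is a related helicase that lacks the signalling domains and modulates the other two. OAS enzymes make short oligoadenylates that act as second messengers, the kinase PKR (EIF2AK2) phosphorylates eIF2α and so stops translation, and ADAR edits adenosines in double-stranded RNA. Most of these genes are themselves induced by interferon.

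The probes that carry the results are shown here so that it can be seen what each value was measured with. All probes had 60 bases, with a GC content of 35 to 45%. Positions are those of the files on build EquCab1, which give no exon or intron. Capitals mark bases that another probe of the same gene also holds. The first set holds whole probes of the sensors, of PKR and of ADAR, on chr18:31121369-31121428 (minus strand), chr23:39516222-39516281 (minus), chr15:57176382-57176441 (plus), chr15:57176244-57176381 (plus) and chrUn:83272858-83272917 (minus). The 60 bases of the second EIF2AK2 probe are spread over 138 positions of the genome.
IFIH1 (A_69_P041987): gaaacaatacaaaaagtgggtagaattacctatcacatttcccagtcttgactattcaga
DDX58 (A_69_P027287): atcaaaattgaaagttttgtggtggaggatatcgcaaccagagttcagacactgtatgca
EIF2AK2 (A_69_P059921): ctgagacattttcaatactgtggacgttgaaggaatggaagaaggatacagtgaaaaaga
EIF2AK2 (A_69_P059922): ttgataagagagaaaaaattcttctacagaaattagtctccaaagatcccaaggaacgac
ADAR (A_69_P075442): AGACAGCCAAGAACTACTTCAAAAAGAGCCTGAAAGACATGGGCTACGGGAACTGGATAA

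The second set holds the first 30 bases of probes of DHX58 and the OAS genes, to show which probes of a gene are near copies of each other. The DHX58 stretch (chr11:19586842-19586871, plus strand) is contained in 5 of 5 DHX58 probes, so these are readings of almost the same bases. Of the 6 OAS2 probes, 5 hold the second OAS2 stretch (chr8:19293154-19293183, minus), and the brightest OAS2 probe (first stretch, chr8:19292932-19292961, minus) lies apart from them. The OAS1 stretch (chr8:19350873-19350902, minus) is held by 2 of the 4 OAS1 probes, each of which overlaps the next. OAS3 is shown with the probe that carries the symbol (chr8:19325487-19325516, minus) and then the probe named by transcript (whole probe on chr8:19330302-19330475), because they behaved differently. The OASL stretch is on chr8:13067290-13067319 (plus).
DHX58 (A_69_P033061): CCCTGCGAAGGCCACTTCTATTTTTTGAGG
OAS1 (A_69_P000686): CTTGACTTTCTTCTGTGTGCCTGGTGAGAA
OAS2 (A_69_P000231): tcgccttgctgagctctcactccgtgagtg
OAS2 (A_69_P003061): TCCTATTGTCAATGAGATGTTCTCACTCCG
OAS3 (A_69_P001156): agatggcttctgcctccttcctttagcaca
OAS3 (A_69_P065311): attaattccatattaaagatccacctgcca
OASL (A_69_P001271): tttactgcccatgggtcctgtccccatgct

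Signals were lower in GO-treated cells for the sensors, for OAS1, OAS2 and OAS3, and for PKR, and OASL stood apart from them. A probe was called when limma's adjusted p was at most 0.05 and the fold change at least 1.3, over the 26832 probes well above background in all 4 arrays of a channel. All 20 probes met that filter, and 17 of them were lower and 0 higher, beside 5.61% of all probes tested that were lower and 3.33% that were higher. The probes not called were both of OASL and 1 of 3 of EIF2AK2. Taking the brightest probe of a gene, 6 of 7 genes were lower, beside 5.38% of the 9502 named genes tested (3.3% were higher). The ratio was below 0 on all 4 arrays for 19 of the 20 probes, beside 21.5% of all probes tested. Every GO signal was below every control signal for 10 of the 20, beside 5.39%. Both IFIH1 probes met the filter only through the control channel. With the filter applied to both channels, they were not tested and 15 of the 20 probes were called. The genes were chosen with this contrast in view, and nothing is read from these shares. The median log2 ratio over the 7 genes was -1.11, and the median over all probes tested was 0.00. Over all probes 62.7% of the calls were lower in GO-treated cells, and 48.7% were with each array centred on its median instead of the deposited lowess normalization.

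**Figure D1:**
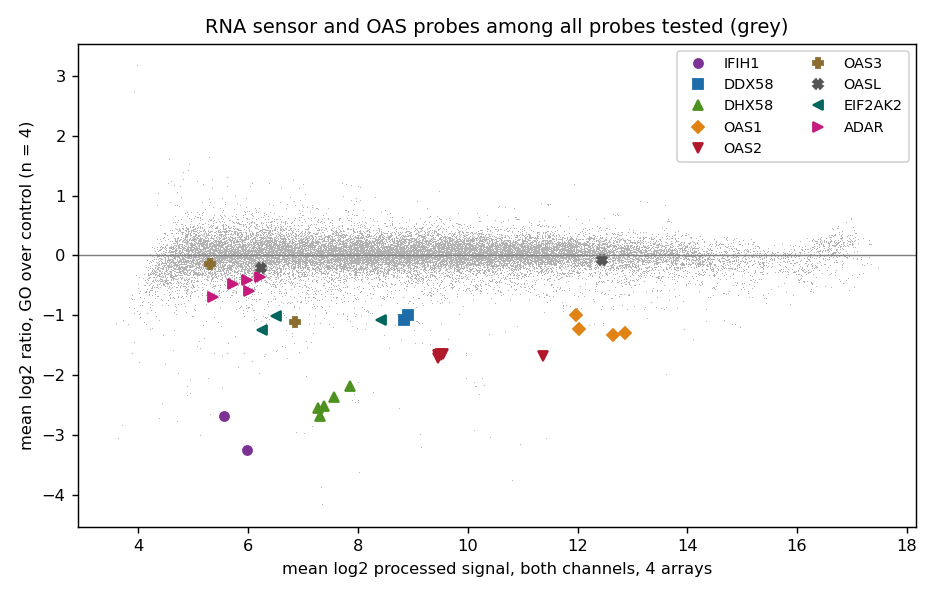
Mean log2 ratio of GO over control (vertical axis, n = 4 arrays) against the mean log2 processed signal of both channels (horizontal axis) for the 26832 probes tested (grey points) and for every probe of the 9 genes (coloured symbols). The IFIH1 and DHX58 probes lie at -2.19 or below, those of OAS1, OAS2, DDX58 and EIF2AK2 between -1.72 and -1.0, and both OASL probes near 0.

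The 3 helicases. IFIH1 had signals in control cells and hardly any above background in GO-treated cells. The processed signal of its brightest probe in control cells was 370 on array 1, 93.8 on array 2, 611 on array 3 and 68.8 on array 4. In GO-treated cells it was 39.6, 15.9, 20.5 and 13.7 in the same order. The groups did not overlap. The GO signal was well above background on only 1 of 4 arrays, so the size of the fall is uncertain. Taking for each array the higher of the probe's own GO signal and the dimmest GO signal well above background, it was 7.81-fold. This is no strict bound. On arrays 2 and 3 the probe's own signal was the higher, though not well above background. The measured log2 ratios were -3.22, -2.56, -4.90 and -2.33, with a mean of -3.25 ± 1.16 (SD, n = 4). With normexp background correction and loess on the raw signals, the mean of IFIH1 was -1.35. The adjacent IFIH1 probe, printed above, gave 211, 59.4, 346 and 47.2 in control cells and 19.0, 17.3, 16.8 and 21.6 in GO-treated cells. There the GO signal was well above background on 0 of 4 arrays. The fall taken in the same way was 5.62-fold, again no strict bound.

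RIG-I was measured well above background in both channels on all 4 arrays. The DDX58 probe printed above read 855, 463, 1303 and 417 in control cells and 365, 314, 364 and 321 in GO-treated cells. The lowest control signal was above the highest GO signal. Its log2 ratios of -1.23, -0.56, -1.84 and -0.38 gave a mean of -1.0 ± 0.67 (SD, n = 4), and the neighbouring DDX58 probe had a mean of -1.08 ± 0.66. The control signals differed 3.12-fold between the highest and the lowest array, and the GO signals 1.16-fold. Neither DDX58 probe was called without array 1 or without array 2, and 1 of 2 was called without array 3. Neither was called with no filter on dim probes, the channels unpaired or the plain one-sample test.

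DHX58, whose product LGP2 has no signalling domain of its own, was read by 5 probes offset from each other by single bases. The brightest gave 854, 261, 1780 and 147 in control cells and 134, 71.9, 234 and 60.7 in GO-treated cells. Each array had the lower signal in GO-treated cells, while the groups overlapped, because the GO signal on array 3 was above the control signal on array 4. The log2 ratios were -2.68, -1.86, -2.93 and -1.28, with a mean of -2.19 ± 0.76 (SD, n = 4). Over the 5 DHX58 probes the means ran from -2.68 to -2.19, and 5 of 5 were called.

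The OAS family. OAS1 makes oligoadenylates on binding double-stranded RNA. Its brightest probe read 16467, 6493, 28535 and 5985 in control cells on arrays 1 to 4. In GO-treated cells OAS1 read 4963, 4076, 5650 and 4416. The groups did not overlap, and the GO signals lay within 1.39-fold of each other beside 4.77-fold for the control signals. The log2 ratios of -1.73, -0.67, -2.34 and -0.44 averaged -1.29 ± 0.89 (SD, n = 4). The 4 OAS1 probes, each overlapping the next, had means between -1.33 and -1.0. None of the 4 was called without array 1, and 2 were called without array 2 or without array 3. None was called with no filter on dim probes, the channels unpaired or the plain one-sample test.

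OAS2, a larger synthetase with a repeated catalytic unit, was lower on every array. The brightest OAS2 probe gave 6014, 3005, 13008 and 2104 in control cells and 1640, 1223, 2392 and 1002 in GO-treated cells. The highest GO signal, on array 3, was above the lowest control signal, on array 4. The log2 ratios were -1.87, -1.30, -2.44 and -1.07, with a mean of -1.67 ± 0.62 (SD, n = 4). The 5 near-identical OAS2 probes of the other stretch had means from -1.72 to -1.64.

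The OAS3 probe that carries the symbol and the OAS3 probe named by transcript gave different results. The first read 195, 137, 385 and 81.6 in control cells and 82.2, 85.4, 106 and 51.9 in GO-treated cells. Its log2 ratios of -1.25, -0.68, -1.86 and -0.65 averaged -1.11 ± 0.57 (SD, n = 4). This probe was called, but not with array 1 left out, no filter on dim probes, the channels unpaired or the plain one-sample test. The second read 37.6, 44.7, 47.6 and 36.3 in control cells and 33.4, 41.8, 44.5 and 31.8 in GO-treated cells, with a mean log2 ratio of -0.14 ± 0.05 (SD, n = 4), and was not called. Both were well above background on 4 of 4 arrays in each channel, so the ratio of OAS3 differs with the probe that is read.

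OASL, whose human counterpart has lost the synthetase activity, was the gene of the list with no probe called. Its brightest probe read 5390, 6500, 5867 and 5219 in control cells and 5927, 6094, 5196 and 4565 in GO-treated cells. The groups overlapped, and array 1 had the higher signal in GO-treated cells. The log2 ratios were 0.14, -0.09, -0.18 and -0.19, a mean of -0.08 ± 0.15 (SD, n = 4). The other OASL probe, directly beside it on the genome, read 99.4, 77.9, 102 and 54.4 in control cells. In GO-treated cells it read 93.5, 70.5, 73.3 and 49.1. It had ratios of -0.09, -0.15, -0.48 and -0.15 and a mean of -0.21 ± 0.18.

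PKR and ADAR. PKR is the kinase that links double-stranded RNA to a stop in translation. The brightest EIF2AK2 probe gave 699, 278, 1124 and 277 in control cells and 249, 193, 276 and 233 in GO-treated cells. The lowest control signal, 277 on array 4, was just above the highest GO signal, 276 on array 3. The log2 ratios of -1.49, -0.53, -2.02 and -0.25 averaged -1.07 ± 0.83 (SD, n = 4). The other EIF2AK2 probes had means of -1.24 ± 0.88, which was called, and -1.01 ± 0.93, which was not. None of the 3 was called with normexp and loess, with no filter on dim probes, with the channels unpaired, with the plain one-sample test, or without array 1, 2 or 3.

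ADAR, the editing enzyme, had smaller ratios than the helicases and PKR. Its 5 overlapping probes had means from -0.69 to -0.37, and 3 of 5 were called, but 0 of 5 with normexp and loess, with no filter on dim probes, with the channels unpaired or with the plain one-sample test. The ADAR probe printed above read 110, 81.3, 109 and 51.2 in control cells and 69.5, 77.1, 72.0 and 46.9 in GO-treated cells, which overlap. Its log2 ratios were -0.67, -0.08, -0.60 and -0.13, with a mean of -0.37 ± 0.31 (SD, n = 4).

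**Figure D2:**
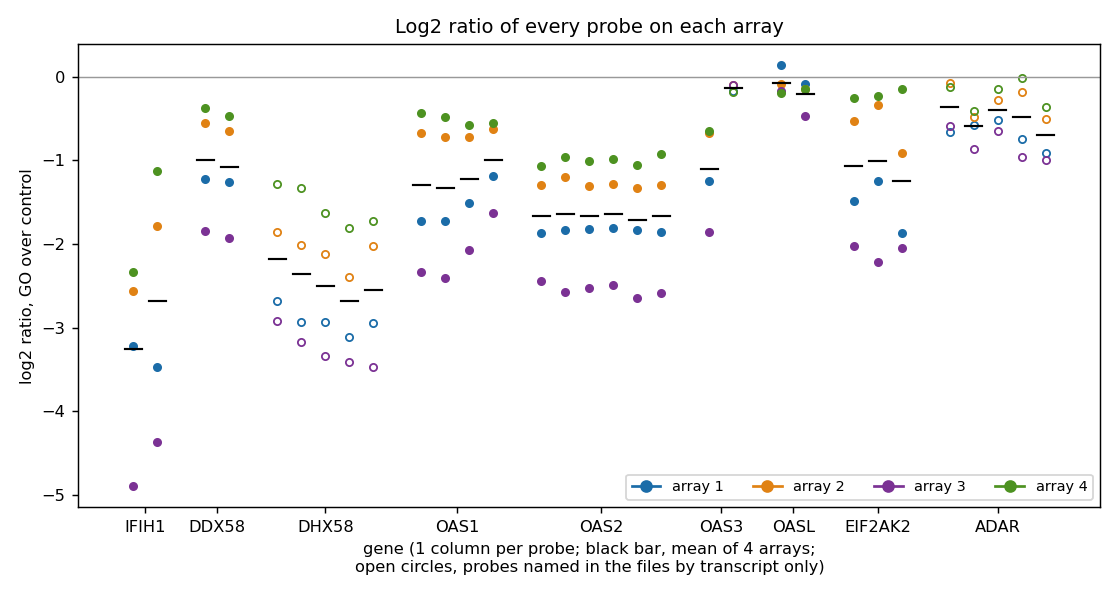
Log2 ratio of GO over control (vertical axis) for each probe of the 9 genes (1 column per probe), with 1 point per array in the array's colour and a black bar at the mean of 4 arrays. Filled points are probes found by symbol and open points those named by transcript, and array 3 has the lowest ratio in 19 of the 20 probes found by symbol.

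The arrays fell in the same order for nearly all of these genes. The ratio was lowest on array 3, then 1, then 2, then 4 for 18 of the 20 probes, and the median log2 ratio over the 7 genes was -1.49 on array 1, -0.67 on array 2, -2.02 on array 3 and -0.44 on array 4. The median over all probes tested lay between 0.00 and 0.01 on each array. These differences lay mainly in the control signals. In control cells the signals of arrays 1 and 3 were above those of arrays 2 and 4 for 19 of the 20 probes, the exception being the brightest OASL probe. The same 19 was counted in the background-subtracted control signals, before the dye normalization. In GO-treated cells the processed signals of arrays 1 and 3 were above those of arrays 2 and 4 for 15 of the 20 probes. The shares of all probes tested with these orders of arrays are not given here. Several OAS2 probes are near copies and neighbouring OAS1 probes overlap, so the 20 probes are not separate readings. The SD of the log2 signal over the 4 arrays was larger in control than in GO-treated cells for 19 of the 20 probes, as it was for 58.1% of all probes tested.

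The control signals of the brightest OAS2 probe differed 6.18-fold between the highest and lowest array and its GO signals 2.39-fold. The corresponding values were 4.72-fold and 2.04-fold for the OAS3 probe carrying the symbol, for EIF2AK2 4.05-fold and 1.43-fold, and for DHX58 12.1-fold and 3.86-fold. The brightest OASL probe differed 1.25-fold in control and 1.33-fold in GO-treated cells, and the other OASL probe 1.88-fold and 1.90-fold. The median SD over all probes tested was 0.22 in control and 0.20 in GO-treated cells on the log2 scale, whereas the SD of the brightest OAS1 probe was 1.09 and 0.21. For IFIH1 the control signals differed 8.88-fold, and its GO signals were too near background for such a comparison. This leaves out IFIH1, OASL and the OAS3 probe named by transcript. For the other probes, the signals of the 4 control samples thus differed from each other by more than those of the 4 GO-treated samples. The ratios divide by these control signals, so their order of arrays is not a separate result. What made the control signals differ was not tested. Without array 1 the number of probes called was 7 of 20, and without array 2 it was 11, while 6 of 6 OAS2 probes and 5 of 5 DHX58 probes were called with any 1 array left out. With no filter on dim probes 0 of the 20 were called by limma, though 16 had an unadjusted p below 0.05, and with the channels taken as unpaired samples 2 were, both of IFIH1, whose GO signal was at or near background. The 5 DHX58 probes were not called either with no filter, with the channels unpaired or with the plain one-sample test.

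**Figure D3:**
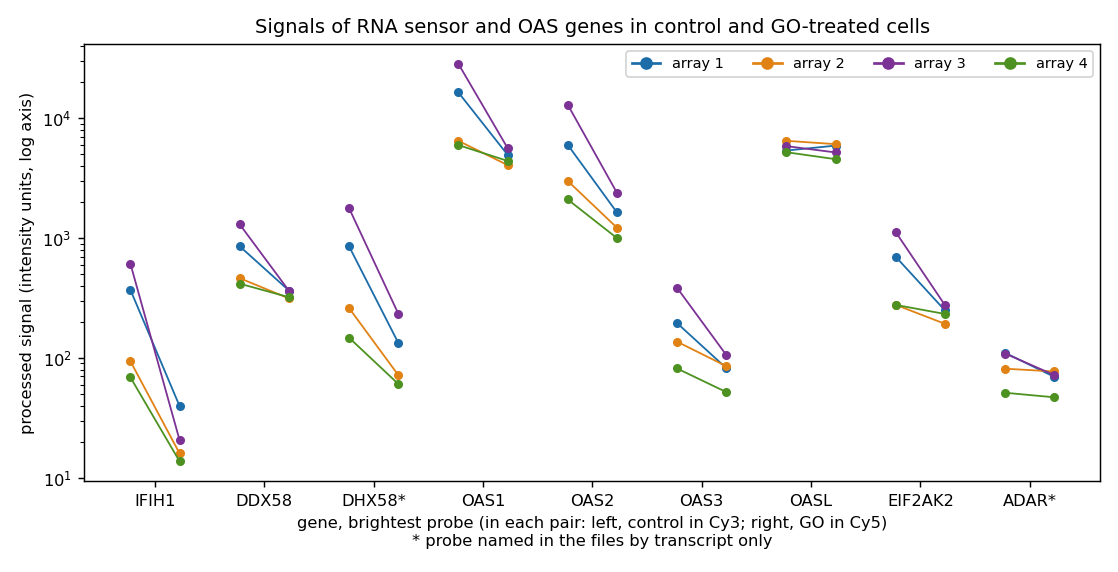
Processed signal on a log axis for the brightest probe of each gene, with control cells (Cy3) on the left and GO-treated cells (Cy5) on the right of each pair and a line joining the channels of 1 array. The control points of arrays 1 and 3 lie above those of arrays 2 and 4 for every gene except OASL, and the GO points of DDX58, OAS1 and EIF2AK2 lie within 1.43-fold of each other.

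**Figure D4:**
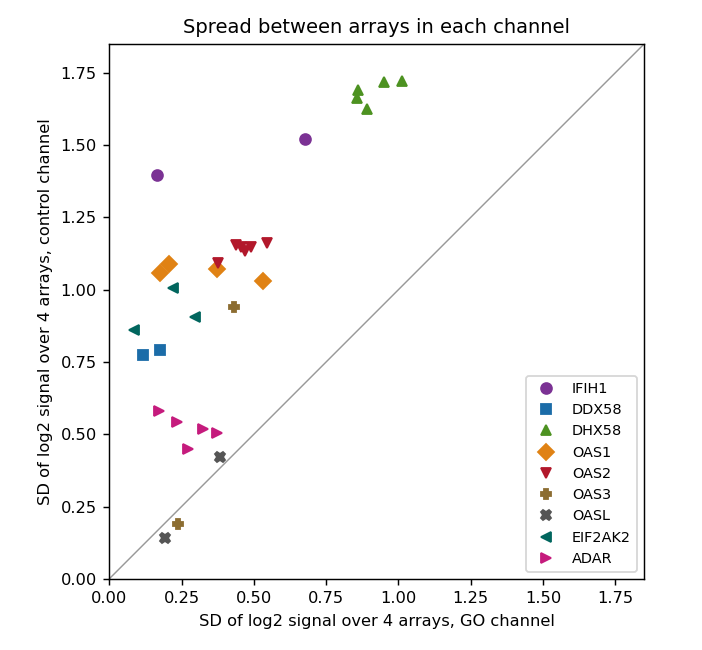
SD of the log2 processed signal over 4 arrays in control cells (vertical axis) against that in GO-treated cells (horizontal axis), with 1 symbol per probe and a grey line where the SDs are equal. All probes lie above the line except the OAS3 probe named by transcript and the brightest OASL probe.

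The genes around the sensors, which were on lists of the pathway and not among the genes above, stayed mostly near a ratio of 0. Of 27 genes that carry or modulate the signal of the RNA sensors, 22 had a probe by name and 20 were tested. Only IRF7 was called, and its ratio was lower, beside 5.38% of all named genes tested that were lower and 3.3% that were higher. By limma 5 of the 20 had an unadjusted p below 0.05. Nothing is read from counts of calls among so few genes. IRF7, the transcription factor that drives interferon alpha genes, had log2 ratios of -2.30, -2.10, -2.93 and -1.96 and a mean of -2.32 ± 0.43 (SD, n = 4, limma adjusted p = 0.00121). The adaptor MAVS had a mean of 0.01 ± 0.26, and TRIM25, the ubiquitin ligase that activates RIG-I, one of -0.04 ± 0.16. TLR3, the endosomal receptor for double-stranded RNA, had ratios of -1.74, -0.49, -1.59 and 0.11 and a mean of -0.93 ± 0.89, which did not pass (limma adjusted p = 0.0799). In GO-treated cells TRIM25 was well above background on only 2 of 4 arrays and TLR3 on 3 of 4, so these ratios are partly near background. TRAF3 had a mean of 0.36 ± 0.07 (limma adjusted p = 0.012), below the fold threshold. ZC3HAV1 had no probe under its symbol. The median log2 ratio of the 20 genes was 0.02. With median centring in place of lowess, and also without array 4, TLR3 was called as well. IRF7 was not called with the plain one-sample test.

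Of 20 genes that work with PKR or with eIF2, 18 were tested and 0 were called by limma in either direction. The share over all named genes tested was 5.38% lower and 3.3% higher. Of the 18, 1 had an unadjusted p below 0.05, and 0 were called with a plain one-sample test. Their means lay between -0.16 and 0.18 with a median of 0.05. Among them PRKRA, the activator of PKR, had a mean of 0.18 ± 0.22 and TARBP2, an inhibitor of PKR, one of 0.12 ± 0.17 (SD, n = 4). The substrate eIF2α (EIF2S1) had a mean of -0.06 ± 0.08. The other kinases of eIF2α, EIF2AK1, EIF2AK3 and EIF2AK4, had means of -0.01 ± 0.13, 0.03 ± 0.07 and 0.14 ± 0.17.

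Of the 13 partners of the OAS enzymes, deaminases related to ADAR and sensors of DNA that are reported here, 12 had a probe and 7 were tested. By limma 0 of the 7 were called, beside 5.38% of all named genes tested that were lower and 3.3% that were higher. Of the 7, 2 had an unadjusted p below 0.05, and 0 were called with a plain one-sample test. So few genes can hold no call at those shares. CGAS, the cytosolic DNA sensor that is related to the OAS enzymes in structure, had ratios of -0.89, -0.17, -1.21 and -0.13 and a mean of -0.60 ± 0.54, which did not pass (limma adjusted p = 0.0721). ADARB1, the second editing enzyme, was well above background on 2 arrays in control cells and on 0 in GO-treated cells and was not tested. The median of the 7 genes was -0.06. CGAS was called with median centring in place of lowess (-0.64) and without array 4 (-0.76).

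**Figure D5:**
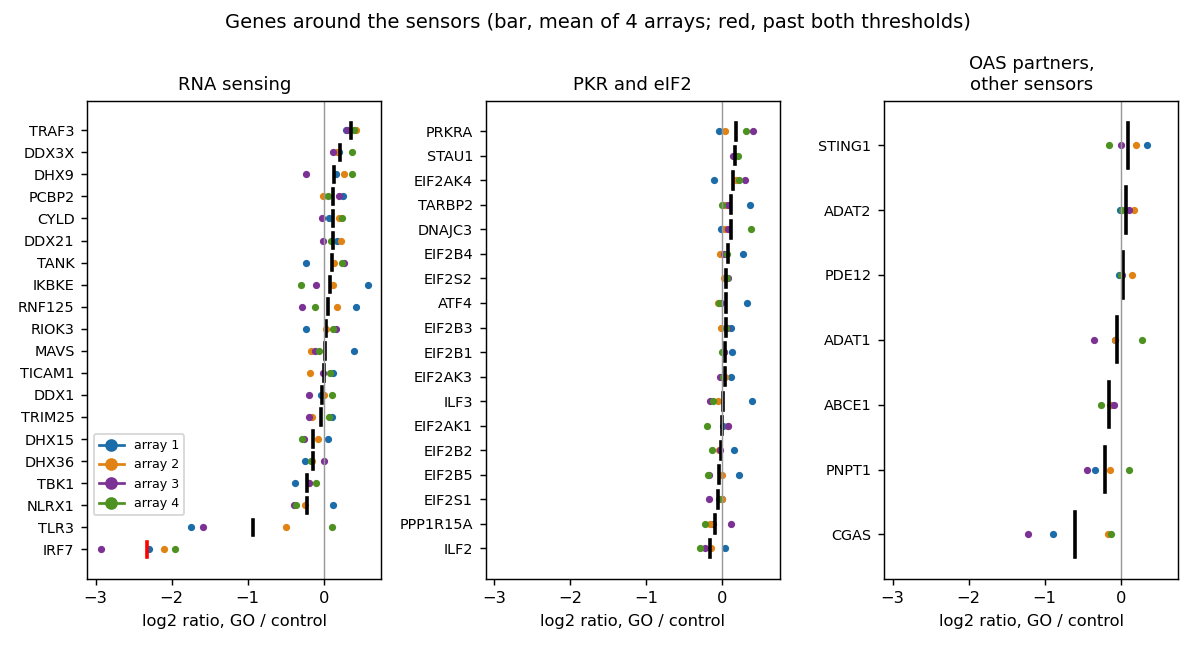
Log2 ratio of GO over control (horizontal axis) for the tested genes of the 3 lists around the sensors (1 row per gene), with 1 point per array in the array's colour and a bar at the mean of 4 arrays, red where the gene passed both thresholds. IRF7 alone carries a red bar, and TLR3 and CGAS have their lower points on arrays 1 and 3.

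Among 9491 other named genes, those whose 8 signals (control and GO on 4 arrays) ran most like the mean profile of the 7 genes were PARP9 (Pearson r = 0.99), ZNFX1 (0.98), the gene named ISG12(A) on the array (0.98), IFI6 (0.98) and HSP90AB1 (0.98). This is a description over 8 signals that share 1 slide and labelling, and the median gene had r = 0.18. The mean log2 ratios of these genes, from PARP9 to HSP90AB1, were -1.36, -0.70, -1.40, -1.33 and -0.33. Of the 7 genes themselves, OASL followed the profile least (r = 0.40), and the others had r between 0.94 and 0.98. Each of the 7 is part of that mean profile, which raises its own r, so these values are a description only.

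Markers of the cells in the culture were set beside these values. Of 8 markers of muscle cells, 6 had a probe by name and all 6 were well above background in both channels on 4 of 4 arrays. MYF5, MYOG, DES, MYH3 and NCAM1 were lower in GO-treated cells, with means from -0.93 to -0.40, and MYOD1 had a mean of -0.36 ± 0.33 (limma adjusted p = 0.0905). With median centring in place of lowess, only MYF5 and NCAM1 of these were called, and the mean of MYH3 was -0.15. MYOG, DES and NCAM1 were not called with no filter on dim probes or with the channels unpaired, and with the plain one-sample test only MYF5 was. Without array 2 MYOG and DES were not called, and MYOG was not called without array 3 or with normexp and loess. The summed muscle marker signal was 95704 to 128336 in control and 56366 to 72962 in GO-treated cells. MYF5 had nearly the same ratio on each array, -0.97, -0.88, -0.96 and -0.90. MYOG, DES, MYH3 and NCAM1 had their lowest ratio on array 3, as most RNA sensor probes did, but their highest on array 1. MYOD1 had its lowest ratio on array 4. Of 6 fibroblast markers tested, PDGFRA was higher on its brightest probe (0.87 ± 0.48, limma adjusted p = 0.0199) and 5 were not called on theirs. Counting all probes, 2 of 9 were called lower for COL1A2 and 1 of 2 higher for DCN. The other PDGFRA probe (1.38) was called too. The brightest PDGFRA probe was not called with normexp and loess (0.37), without array 2 (0.87), with no filter on dim probes, with the channels unpaired or with the plain one-sample test. The summed signal was 275868 to 439993 in control and 285103 to 396928 in GO-treated cells. Of 9 leukocyte markers with a probe reported here, 5 were well above background on no array in either channel, including CD3E, CD79A, ITGAM and CD2. The 2 tested, CD14 and CD68, were not called (1 had an unadjusted p below 0.05), and the summed signal was 4246 to 5056 in control and 4500 to 5339 in GO-treated cells. All 5 endothelial markers (PECAM1, CDH5, VWF, KDR and TEK) were at background on every array, with sums of 27.5 to 36.5 and 29.3 to 39.8. The part of the muscle and fibroblast markers in the values of the RNA sensors was not tested.

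Across the arrays, 63.5 to 68.9% of probes were well above background in control cells and 57.4 to 67.0% in GO-treated cells, and 0 were saturated. The 4 arrays limit the precision of every value, and p-values measure only the spread between them.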

How the data were processed

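RNA of GO-treated (Cy5) and control (Cy3) cells was hybridized to 4 two-color horse arrays on 1 slide. The authors scanned the arrays and deposited, per the file headers, Feature Extraction output (version 10.10.1.1) for each of 45220 spots: intensity values per channel (background-subtracted, and processed with linear and lowess dye normalization) and the log10 ratio of Cy5 over Cy3. A deposited summary table gave identical log10 ratios (180880 of 180880 equal within 1e-09). Flags for signals well above background, deposited as 0 or 1, were used as they stood.

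Ratios were converted to the log2 scale. Control spots (1417) and outlier spots were left out, and the spots of 50 repeated probes were averaged. Of 43603 probes, 26832 were well above background on all 4 arrays in 1 channel or the other and were tested against 0 with limma (version 3.58.1, R 4.3.3), two-sided, with Benjamini-Hochberg adjustment over all of them. Probes were called at the methods' thresholds, adjusted p 0.05 and fold change 1.3; the methods name no test. The script was tested on simulated data.

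Probes were named by the files (24962), or by gene number (1684) or accession (436) through RefSeq. The brightest probe stood for a gene. Named were all members with all probes, list genes past both thresholds, 11 partners whatever their values and the 5 genes most like the members. The results of 2 genes of the lists are not reported here. The lists, the members and the rules were chosen with earlier results of these data known. CGAS, TRAF3, the cell markers and the order of the arrays were singled out after their values were seen. Alternatives were other normalizations, filters and tests, leaving out arrays, and channels as unpaired samples. The same number on both channels of an array marks 1 hybridization, which pairs them.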

Additional observations from a re-analysis of the deposited data

Results flagged for a closer look

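Of 93 sets of 4 array values (log2 ratios and log2 signals of the probes of the 9 genes), 2 had 1 array set apart from the others, by Dixon's ratio of the gap to the range. Chance gives about 1 in 20. The log2 ratio of the dimmer OASL probe (A_69_P001272) was -0.48 on array 3 and between -0.15 and -0.09 on the other arrays (Dixon's ratio 0.849). The log2 GO signal of 1 ADAR probe (A_69_P075445) was lowest on array 4, with a processed signal of 37.4 beside 47.2 to 47.8 on the others (0.955).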

How the results depend on the processing

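No called value changed direction. Among values not called, OASL went from -0.08 to 0.02 with median centring. MAVS went from 0.01 to -0.07 with normexp and loess, -0.03 with median centring, -0.06 with array weights and -0.11 without array 1. EIF2S1, EIF2AK1, EIF2AK3 and TRIM25, whose means were near 0, also changed sign under at least 1 setting. The share of calls that were lower went from 62.7% to 48.7% with median centring. Of the mean log2 ratios of the 7 genes over the settings, 83 stayed within the spread of the arrays. Only IFIH1 under normexp and loess moved (-1.35). Changing the filter, reading the deposited summary table or unpairing the channels leaves these means unchanged, so those values could not move. The 83 is therefore no measure of robustness. Other genes were not counted, and among them MYH3 went from -0.83 to -0.15 with median centring. The median log2 ratio of the 7 genes ran from -1.35 to -0.82 over all settings, from -1.35 to -0.86 with 1 array left out, and was -1.11 with DHX58 and ADAR included (chosen after seeing the data). Of all probes tested, 2399 were called, and 1297 were with normexp and loess, 908 with no filter on dim probes, 919 with the replicate block removed (channels as unpaired samples), 147 with a plain one-sample test for each probe, and 1566 to 2430 with 1 array left out. Of the 20 probes of the RNA sensor and OAS genes, 17 were called, and 0 were with no filter, 2 with the replicate block removed, 0 with the plain test, and 7 to 18 with 1 array left out. With the plain test 12 had an unadjusted p below 0.05. Of the RNA sensing partners 1 was called, and 2 were with median centring, 0 with the plain test, and 1 to 2 with 1 array left out. Of the OAS partners and other sensors 0 were called, and 1 was with median centring and 0 to 1 with 1 array left out. None of the genes around PKR and eIF2 was called under any of these settings. With no filter more probes enter the adjustment, with the plain test no spread is shared between probes, and for the other settings the cause was not tested. Signals at background leave the size of the IFIH1 fall in GO-treated cells uncertain.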
